A study of Mus musculus with 170 samples.

Results

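The vascular endothelial growth factor (VEGF) genes were examined in single cells of the embryonic mouse heart ventricle. The set held 9 of the 40549 genes in the table, and the members were taken by name. They were the 4 ligands Vegfa, Vegfb, Vegfc and Pgf, the 3 receptor tyrosine kinases Flt1 (VEGFR1), Kdr (VEGFR2) and Flt4 (VEGFR3), and the 2 neuropilin co-receptors Nrp1 and Nrp2. All 9 were present in the table.

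Cells came from hearts of C57BL/6 embryos at embryonic day 9.5. Control embryos, labelled wild type, carried Dgcr8 loxP/loxP and the Rosa26 mTmG/+ membrane reporter without Cre, according to the study's methods. Conditional knockout embryos, labelled Mesp1Cre/+; Dgcr8-/- and called cKO, carried both of these and Cre driven from the Mesp1 locus. Mesp1 marks early mesoderm that gives rise to cardiomyocytes (CMs), endocardium and other heart cells, so this Cre is not specific to CMs. Dgcr8 is needed to process most microRNAs. Cells were picked by hand and their full-length cDNA was sequenced in 2 batches. The values were TPM, which correct for transcript length and scale each cell to the same total.

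VEGF ligands are secreted proteins that act on endothelial cells. Vegfa binds Flt1 and Kdr, Vegfb and Pgf bind Flt1, and Vegfc binds Flt4 and Kdr. Kdr carries most of the growth signal in endothelial cells, Flt1 binds Vegfa tightly with weak kinase activity and is also made as a soluble form, and the neuropilins present the ligands to the kinases and also bind class 3 semaphorins. In the embryonic heart, Vegfa from the myocardium acts on the endocardium beneath it.

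The table held 74 control cells and 69 cKO cells. Clustering on 55 marker genes, none of them a VEGF gene, gave a CM-like class of 27 control and 67 cKO cells, an endothelial-like class of 22 control cells, an epicardial-like class of 13 control cells and an erythroid-like class of 5 control cells. Another 7 control and 2 cKO cells, in a cluster led by mitochondrial transcripts, stayed unnamed. The CM-like class had 15 of 15 CM markers above the other cells, the endothelial-like class 13 of 15 endothelial markers, the erythroid-like class 7 of 7 erythroid markers, and the epicardial-like class 6 of 6 epicardial and 7 of 12 mesenchymal markers. No cKO cell was endothelial-like, which with 69 cells allows a share of up to 4.35% of the cells picked. Receptor levels in endothelial cells could therefore be described in control only. The study states that cKO CMs came apart more easily than control CMs, so that more of them were picked. It also reports endocardial and endothelial markers in cKO hearts by in situ hybridization. The counts of classes are therefore not shares of the heart. The study left out cells whose reporter contradicted their genotype. The labels name no embryo or litter, so each genotype counted as 1 sample, no test was run, and SDs and intervals below describe the scatter and counting error across cells. Detected genes per CM-like cell had medians of 8458 in control and 9845 in cKO in batch 1, and of 9704 and 7765 in batch 2. Mitochondrial transcripts took a median of 6.30% of TPM in control and 3.00% in cKO CM-like cells. In CM-like cells the X-linked RNA Xist reached a TPM of 1 in 64 of 67 cKO cells and 0 of 27 control cells, and the Y-linked Ddx3y in 0 of 67 and 18 of 27, so genotype and embryo sex cannot be told apart in any comparison of CM-like cells. Dgcr8 averaged 2.41 ± 2.89 (SD) on the log2(TPM + 1) scale in control and 1.66 ± 2.46 in cKO CM-like cells, and a value per gene does not resolve a deleted exon.

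In the mouse genome (GRCm38, GENCODE vM21) Vegfa lies on chromosome 17 (46016993 to 46032369), Vegfb on 19 (6982473 to 6987651), Vegfc on 8 (54077606 to 54187096) and Pgf on 12 (85166635 to 85177790). Flt1 (147561604 to 147726011) and Kdr (75932827 to 75978458) are on chromosome 5, Flt4 is on 11 (49609263 to 49652739), Nrp1 on 8 (128358604 to 128503363) and Nrp2 on 1 (62703285 to 62818695).

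Since cKO cells are labelled as lacking Dgcr8, the sequences by which microRNAs could recognise the VEGF transcripts are shown. The 3 mature microRNAs taken from RefSeq (GRCm38.p6) were miR-541-5p, which the study returned to cKO cells, and a member each of the miR-15/16 and miR-17 families. Of these, the study's list of the most abundant microRNAs in hearts of this stage held miR-541-5p and miR-20a-5p but not miR-16-5p. The capitals mark the seed, bases 2 to 8. They are encoded at chr12:109742422-109742446 (plus strand) for miR-541-5p, at chr3:69009918-69009939 (plus) and chr14:61631936-61631957 (minus) for miR-16-5p, and at chr14:115044183-115044205 (plus) for miR-20a-5p.
miR-541-5p: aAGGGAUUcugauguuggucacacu
miR-16-5p: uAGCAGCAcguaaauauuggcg
miR-20a-5p: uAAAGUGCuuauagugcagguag

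The complement of each seed was searched on the transcript strand of the longest annotated 3′ untranslated region of each gene. The letters AATCCCT, which pair with miR-541-5p, stood in 0 of the 9 VEGF genes and in 8.09% of 21022 protein-coding genes. The letters TGCTGCT, which pair with miR-16-5p, stood in 3 of 9 (Vegfa, Flt1 and Kdr) and in 20.3% of all genes. The letters GCACTTT, which pair with miR-20a-5p, stood in 2 of 9 (Vegfa and Nrp2, the latter at 2 places) and in 11.7% of all genes. The stretches of 25 bases around these matches are printed with the match in capitals, all within 3′ untranslated exons of GENCODE vM21 (Vegfa, Flt1 and Kdr, the ligand and receptors on which the results below turn).
Vegfa, miR-16-5p match, chr17:46018582-46018606, minus strand: tcttatatcTGCTGCTaaatcgcca
Vegfa, miR-20a-5p match, chr17:46018681-46018705, minus strand: cttcgaggaGCACTTTgggtccgga
Flt1, miR-16-5p match, chr5:147636526-147636550, minus strand: ggctttataTGCTGCTtgtgtgaag
Kdr, miR-16-5p match, chr5:75934352-75934376, minus strand: cgagagaggTGCTGCTtagattttc

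These matches are a description of letters. The Flt1 match lies in the longest annotated region, which belongs to a shorter transcript that ends inside the gene, and the region of the full-length receptor was not searched. The table measured no microRNA. Exact matches to the whole seed were sought in a single region of each gene, and Vegfb, Vegfc, Pgf, Flt4 and Nrp1 held no match to any of the 3 seeds in the regions searched. The study predicted targets with another tool, which lists Vegfb for miR-541-5p. Vegfb was among the predicted targets that the study found raised in bulk RNA of cKO hearts.

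The study sequenced single cells to ask whether vascular genes rose within CMs or endothelial cells became more frequent. Among the ligands, Vegfa was higher in the CM-like cells of cKO hearts than in those of control hearts, while Vegfb, Vegfc and Pgf were not. The study had already named Vegfa among the angiogenesis genes raised in single cKO CMs, and reported its rise by in situ hybridization. The sequenced cells are the same, so the direction of Vegfa here is no independent evidence. Vegfa TPM ran from 0 to 51.9 in the 27 control cells, with a median of 3.96, and from 0 to 350 in the 67 cKO cells, with a median of 38.02. The ranges overlapped, and 29 of 67 cKO cells (43.3%) lay above the highest control cell. In control, 11 of 27 cells reached a TPM of 10 and 0 of 27 reached 100, a count that allows up to 11.1%. In cKO, 53 of 67 reached 10 and 16 of 67 reached 100.

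On the log2(TPM + 1) scale, mean Vegfa was 2.49 ± 1.90 (SD, n = 27 cells) in control and 5.02 ± 2.13 (n = 67 cells) in cKO. Pooled, they differed by 2.52, with 2.98 in batch 1 and 1.58 in batch 2. The pooled difference exceeded the SD across cells of either genotype, and the batch 2 difference did not. The 8 control CM-like cells of batch 2 had Vegfa TPM of 0, 3.49, 3.66, 11.1, 13.03, 17.9, 29.4 and 51.9, with a mean log2 value of 3.34 against 2.14 in the 19 control cells of batch 1. The cKO means of the batches were closer together, at 5.12 and 4.92. Mean TPM was 10.48 in control and 66.7 in cKO, 6.36 times the control mean, and the ratio was 7.58 in batch 1 and 4.44 in batch 2.

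Pooled, Vegfa differed both in how many cells had the transcript and in how much they had. Vegfa reached a TPM of 1 in 66.7% of the control cells (18 of 27, exact Clopper-Pearson 95% interval 46.04 to 83.5) against 92.5% of those from cKO hearts (62 of 67, 83.4 to 97.5). The gap in how many cells had it came from batch 1, with 11 of 19 control and 30 of 33 cKO cells, while batch 2 had 7 of 8 and 32 of 34. Among the cells that reached it, the mean log2 value was 3.63 in control and 5.40 in cKO. Vegfa stayed higher in cKO in each of 11 settings computed, by 1.52 to 3.21. Among 15071 genes with TPM above 0 in more than 10 CM-like cells, 99.5% had a smaller difference than Vegfa.

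A gene was called higher or lower where it differed by at least 1 log2 unit in the same direction pooled and in both batches. By this rule 1 of the 7 VEGF genes that passed the filter was higher in cKO, where 2.65% of all genes were, and 0 of 7 were lower, where 2.69% were. With so few genes, 1 of 7 is not a statement about the family. Pgf and Flt4 did not pass the filter, with TPM above 0 in 8 and 10 of the 94 cells. The median difference of all genes was 0.05 pooled, 0.17 in batch 1 and −0.20 in batch 2.

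**Figure D1:**
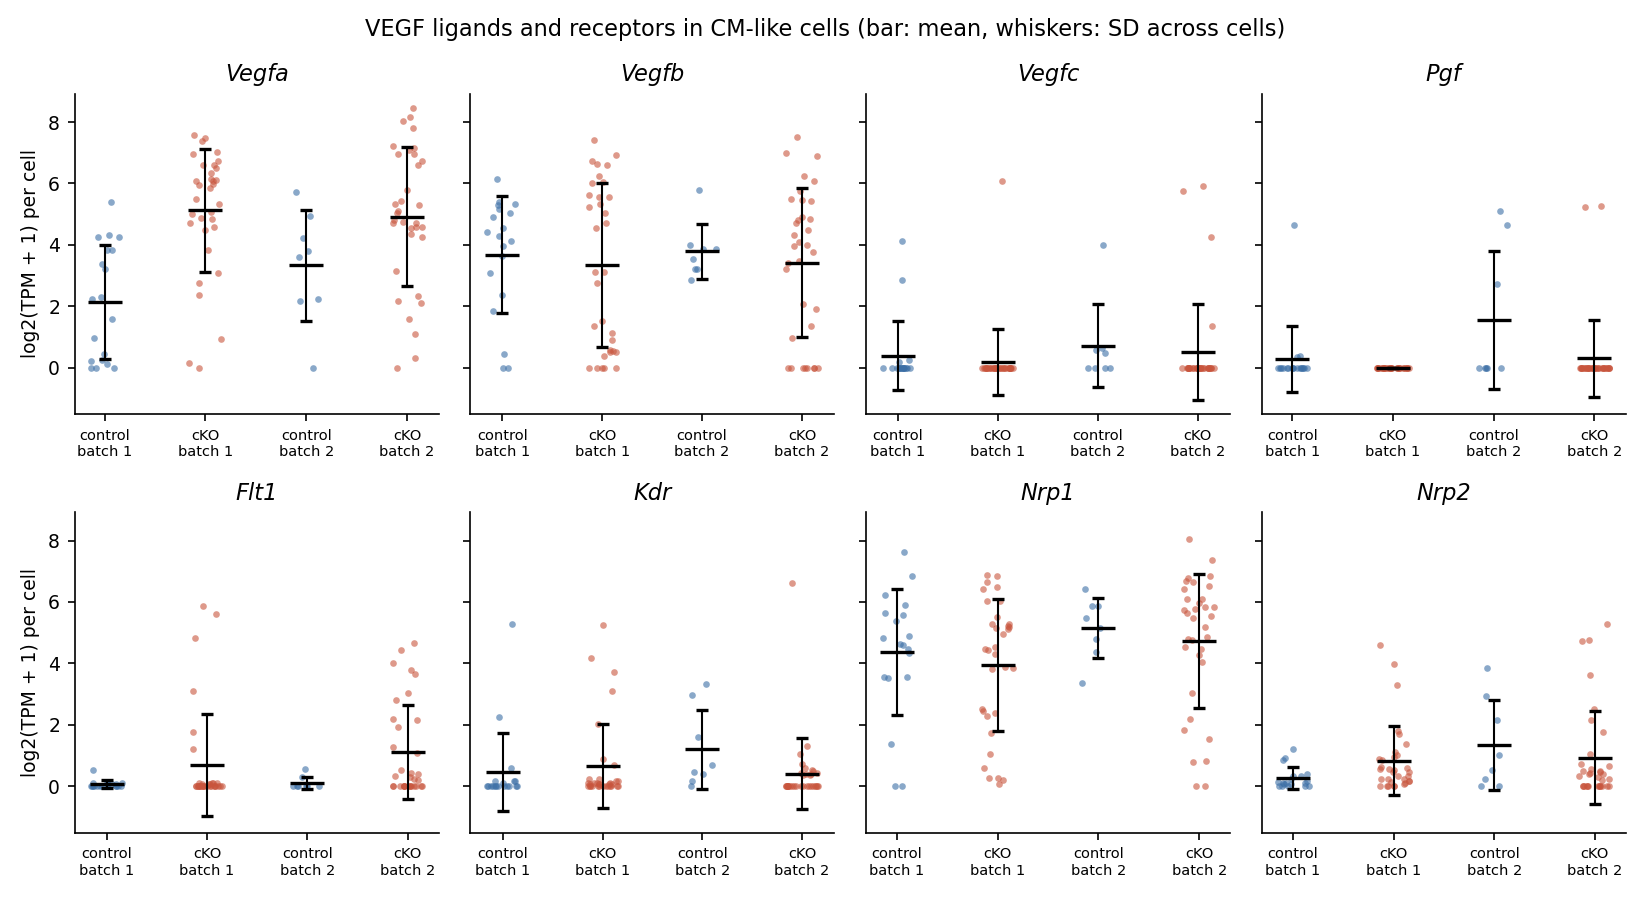
Each point is a CM-like cell, plotted as log2(TPM + 1) by genotype and batch (19 and 8 control cells, 33 and 34 cKO cells), with the mean as a bar and the SD across cells as whiskers. Vegfa means sit at 2.14 and 3.34 in control and at 5.12 and 4.92 in cKO, and Flt1 has points above 1 in cKO alone.

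Vegfb, a ligand of Flt1, was the other ligand found in most CM-like cells. Its TPM ran from 0 to 69.5 in control, with a median of 14.8, and from 0 to 181 in cKO, with a median of 14.6. The medians were close, and cKO had both more cells at 0 (13 of 67 against 2 of 27) and higher top values. The difference of mean log2(TPM + 1) was −0.33 pooled, −0.33 in batch 1 and −0.37 in batch 2, well within the SDs of 1.65 in control and 2.53 in cKO. Mean TPM had the opposite order, 19.7 in control and 31.6 in cKO. Vegfb reached a TPM of 1 in 88.9% of the control cells (24 of 27, 95% interval 70.8 to 97.6) against 70.1% of those from cKO hearts (47 of 67, 57.7 to 80.7). Among those cells, its mean log2 value was 4.16 in control and 4.73 in cKO, so that fewer cKO cells had Vegfb and those that had it held more. No direction is therefore given for Vegfb. The study counted Vegfb among genes raised in bulk RNA of cKO hearts, a sample of all heart cells and not of CMs alone.

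Vegfc, the ligand of the lymphatic receptor Flt4, and Pgf, placental growth factor, were rare in CM-like cells. Vegfc reached a TPM of 1 in 3 of 27 control cells and 5 of 67 cKO cells, with highest values of 16.6 and 67.1. Pgf reached it in 4 of 27 control cells and 2 of 67 cKO cells, with highest values of 33.2 and 37.6. All 33 cKO cells of batch 1 had Pgf at 0, a count that allows up to 9.09%. The differences in mean log2(TPM + 1) were −0.14 for Vegfc and −0.50 for Pgf, smaller than their SDs in either genotype. Vegfc differed by −0.21 and −0.20 within the batches but had the opposite order by mean TPM, 1.46 in control and 2.98 in cKO. Pgf differed by −0.28 in batch 1 and −1.25 in batch 2, and its log2 ratio of mean TPM, with 1 added to each mean, was −1.01.

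The make-up of the ligand pool differed with genotype. Vegfa took 30.04% of the summed mean TPM of the 4 ligands of the control CM-like pool and 65.2% of the cKO pool, while Vegfb took 56.5% and 30.8%. In control the lead of Vegfb was that of batch 1 (66.8% against 25.3% for Vegfa), since in batch 2 Vegfa took 38.5%, Vegfb 38.1% and Pgf 18.5%. In cKO, Vegfa took 62.9% in batch 1 and 67.2% in batch 2. The sum itself was 34.9 TPM in control and 102 in cKO. Cell by cell, Vegfb was the most abundant ligand in 16 of 27 control cells and Vegfa in 7, whereas Vegfa was the most abundant in 39 of 67 cKO cells and Vegfb in 23. Vegfa led in a larger share of cKO than of control cells in each batch. In batch 1, Vegfa led in 4 of 19 control and 20 of 33 cKO cells. In batch 2, Vegfa led in 3 of 8 control and 19 of 34 cKO cells.

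**Figure D2:**
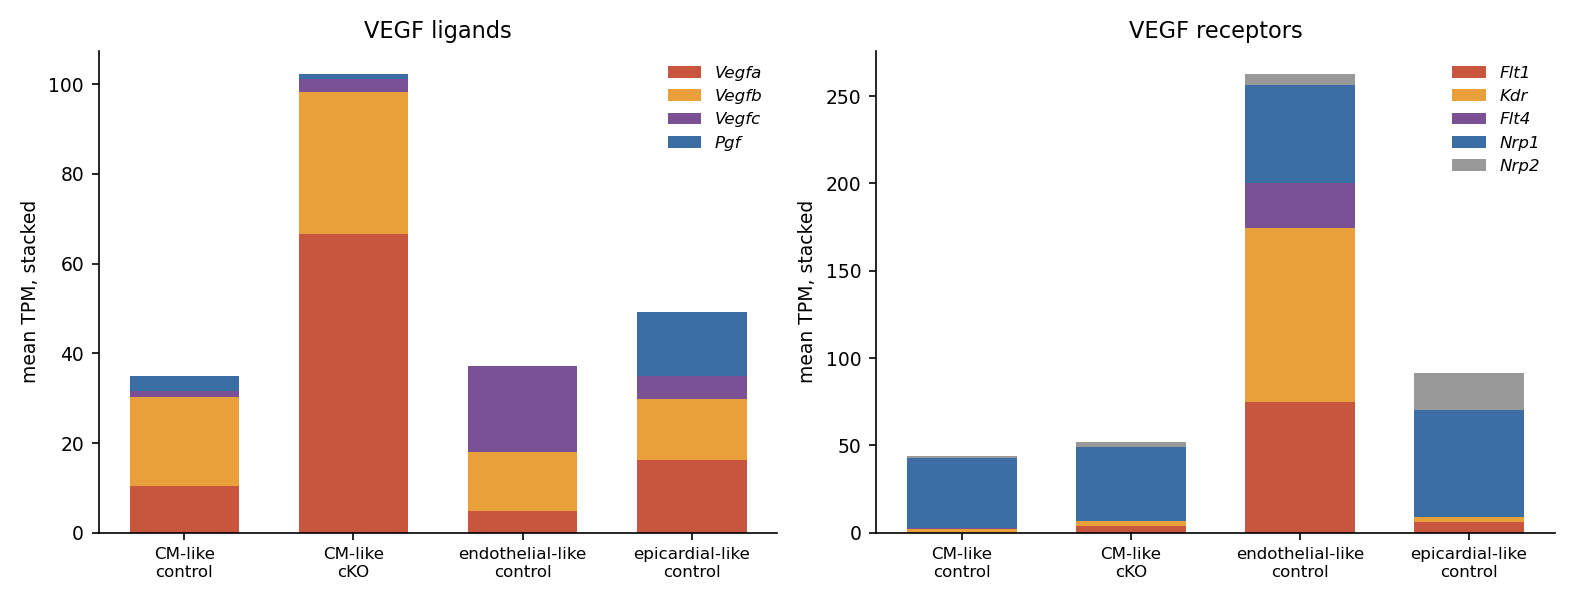
Bars stack the mean TPM of the ligands (left) and of the receptors (right) in CM-like cells of control and cKO and in endothelial-like and epicardial-like control cells. Vegfa fills 65.2% of the ligand bar of cKO CM-like cells, and Nrp1 most of the receptor bar of both CM-like groups.

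Of the receptor kinases, Flt1 was seen at a TPM of 1 in cKO CM-like cells and in no control CM-like cell. In control, Flt1 TPM ran from 0 to 0.465 with a median of 0, and 0 of 27 cells reached a TPM of 1, a count that allows up to 11.1%. In cKO, it ran from 0 to 57.6 with a median of 0, and 18 of 67 cells reached 1, or 26.9% (95% interval 16.8 to 39.1). These were 6 of 33 cells in batch 1 and 12 of 34 in batch 2, against 0 of 19 and 0 of 8 in control. All 18 therefore lay above every control cell, while the other 49 overlapped with control. Mean log2(TPM + 1) was 0.07 ± 0.15 in control and 0.90 ± 1.596 in cKO. The difference, 0.83 pooled, 0.64 in batch 1 and 1.00 in batch 2, was below the SD across cKO cells and did not meet the rule. Traces of Flt1 between 0 and 1 TPM were present in 10 of 27 control and 14 of 67 cKO cells. The value per gene does not separate the soluble from the membrane form.

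Endothelial markers were counted in the Flt1 cells because Flt1 is an endothelial receptor. Of the 15 endothelial markers, the 18 cKO cells with Flt1 at a TPM of 1 had a median of 2 at a TPM of 1 or more (range 1 to 5). The 49 cKO cells with Flt1 below a TPM of 1 had a median of 2 (range 1 to 7). The summed TPM of the 15 markers ran from 5.50 to 412 in the 18 cells, with a median of 24.6, and from 3.09 to 391 in the 49, with a median of 37.002. In endothelial-like cells the sum ran from 1023 to 5352. The endothelial and CM markers formed the classes, so this gap between classes is partly set by the clustering. Cdh5, Tek, Tie1 and Emcn were all below a TPM of 1 in 16 of the 18 cells. Pecam1 reached a TPM of 1 in 26 of 27 control and 67 of 67 cKO CM-like cells, and none of the 15 markers was at 0 in every CM-like cell of a genotype. The mean log2 level of the CM markers was 10.2 in the 18 cells and 10.1 in the 49. When all CM-like cells with any of these 4 markers at a TPM of 1 were left out, 56 cKO and 23 control cells remained, with a difference of 0.94 for Flt1 and of 2.83 for Vegfa.

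Kdr and Flt4 were low in CM-like cells of both genotypes. Kdr ran from 0 to 38.1 TPM in control and from 0 to 97.8 in cKO, and reached a TPM of 1 in 5 of 27 control and 8 of 67 cKO cells. Its difference was −0.15 pooled but 0.19 in batch 1 and −0.80 in batch 2, so it had no common direction. The 5 control cells with Kdr had 2 to 10 of the 15 endothelial markers at a TPM of 1, and the 8 cKO cells had 1 to 4. Flt4 reached a TPM of 1 in 1 cell of each genotype, with highest values of 2.22 and 1.66.

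Nrp1 was the abundant VEGF receptor of CM-like cells, and its ranges overlapped widely between genotypes. Its TPM ran from 0 to 198 in control, with a median of 27.4, and from 0 to 267 in cKO, with a median of 30.4. Nrp1 reached a TPM of 1 in 92.6% of the control cells (25 of 27, 95% interval 75.7 to 99.1) against 86.6% of those from cKO hearts (58 of 67, 76.03 to 93.7). The difference of mean log2(TPM + 1) was −0.27 pooled, −0.42 in batch 1 and −0.45 in batch 2, below the SDs of 1.83 and 2.19. Nrp1 made up 91.9% of the summed mean receptor TPM of the control CM-like pool and 82.1% of the cKO pool, and Flt1 0.135% and 7.36%. Nrp2, at a TPM of 1 or more in 5 of 27 control and 16 of 67 cKO cells, differed by 0.57 in batch 1 and −0.41 in batch 2.

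To see which cells could receive the ligands, the classes were compared within control. Flt1, Kdr, Flt4 and Vegfc were higher in endothelial-like than in CM-like control cells and Vegfb was lower. These were 4 of the 8 members that passed the filter, where 10.2% of 13130 genes were higher, and 1 of 8, where 4.68% were lower. The filter counts cells of both classes together. Flt1, Flt4 and Vegfc were above 0 in 10, 3 and 8 of 27 CM-like control cells, so they passed through the endothelial-like cells. The count of 4 of 8 is thus partly set by the filter and is not a statement about the family. Pgf did not pass, with TPM above 0 in 7 of 49 cells. Endothelial-like and CM-like cells were separated by marker genes that exclude the VEGF family, and the 22 endothelial-like cells numbered 7 in batch 1 and 15 in batch 2. The summed TPM of the 15 CM markers in them had a median of 898 and a range of 162 to 36085, against a lowest sum of 37270 in CM-like cells. The endothelial-like cell with the sum of 36085 thus held CM transcripts as well, and whether it was a doublet was not tested.

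Kdr was the most abundant kinase receptor of the endothelial-like cells. Its TPM ran from 0.228 to 271 with a median of 79.1, and 21 of 22 cells reached a TPM of 10. Mean log2(TPM + 1) was 6.11 ± 1.66 (n = 22 cells), against 0.68 ± 1.31 in CM-like control cells, a difference of 5.43 pooled, 4.92 in batch 1 and 5.25 in batch 2. The 7 endothelial-like cells of batch 1 had Kdr TPM of 0.228, 14.5, 56.99, 76.1, 76.4, 137 and 241. Of the 22 cells, 17 lay above the highest CM-like control cell, and the lowest, at 0.228, lay within their range.

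Flt1 ran from 0.704 to 508 TPM in endothelial-like cells, with a median of 40.9. All 22 values lay above the highest of the 27 CM-like control cells, 0.465, so these groups did not overlap. Their means differed by 5.10 log2 units pooled, by 3.67 within batch 1 and by 5.74 within batch 2. In batch 1 the 7 values were 0.704, 0.722, 15.9, 16.7, 27.7, 47.3 and 59.2, and in batch 2 the lowest was 3.97 and the median 68.98, so Flt1 was higher in endothelial-like cells of batch 2 than of batch 1. Flt4 ran from 0 to 76.4 TPM with a median of 19.3, and 18 of 22 cells reached a TPM of 1 against 1 of 27 CM-like control cells. It differed by 3.84 log2 units pooled, by 3.27 within batch 1 and by 3.99 within batch 2.

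The promoters of Kdr and Flt1, which were high together in endothelial-like cells, are printed as the 250 bases before the RefSeq start (GRCm38.p6), 5′ to 3′ on the gene's strand. Capitals mark, on either strand, exact matches to the ETS site CCGGAA, the hypoxia site ACGTG and the cyclic AMP element TGACGTCA. The last was chosen after the Flt1 sequence had been seen. Other forms of these sites, such as GGAA without CC before it or GCGTG, were not searched and stay in lower case.
Kdr, chr5:75978456-75978705, minus strand: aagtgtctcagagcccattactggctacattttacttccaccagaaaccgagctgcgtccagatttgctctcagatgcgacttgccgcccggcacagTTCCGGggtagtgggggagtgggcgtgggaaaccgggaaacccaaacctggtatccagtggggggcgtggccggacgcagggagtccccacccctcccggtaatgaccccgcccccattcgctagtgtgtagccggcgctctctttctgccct
Flt1, chr5:147726012-147726261, minus strand: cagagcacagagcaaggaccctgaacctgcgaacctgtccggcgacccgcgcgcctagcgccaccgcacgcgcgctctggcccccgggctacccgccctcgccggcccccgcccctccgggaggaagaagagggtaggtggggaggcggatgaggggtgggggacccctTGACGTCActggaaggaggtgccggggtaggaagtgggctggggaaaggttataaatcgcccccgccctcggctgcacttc

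Kdr held CCGGAA on its reverse strand, beginning 153 bases before the start, and Flt1 held TGACGTCA, beginning 81 bases before it. In all 32851 windows of 250 bases, CCGGAA stood in 12%, ACGTG in 16.6% and TGACGTCA in 1.55%. Of the 11 windows of VEGF genes, each motif stood in 1, with ACGTG in the window of the downstream Vegfa start. That window lies inside the Vegfa gene, and the window of the upstream Vegfa start held none of these motifs.

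The neuropilins did not separate these classes as the kinases did. Nrp1 had a median of 46.4 TPM in endothelial-like and 27.4 in CM-like control cells, and a difference of mean log2(TPM + 1) of 0.30 pooled, 0.41 in batch 1 and −0.20 in batch 2. Nrp2 was 1.22 higher pooled, 1.22 higher in batch 1 and 0.62 higher in batch 2, which met the rule in 3 of 10 alternative settings but not here, and its endothelial-like values ran from 0 to 30.6 TPM with a median of 1.05.

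**Figure D3:**
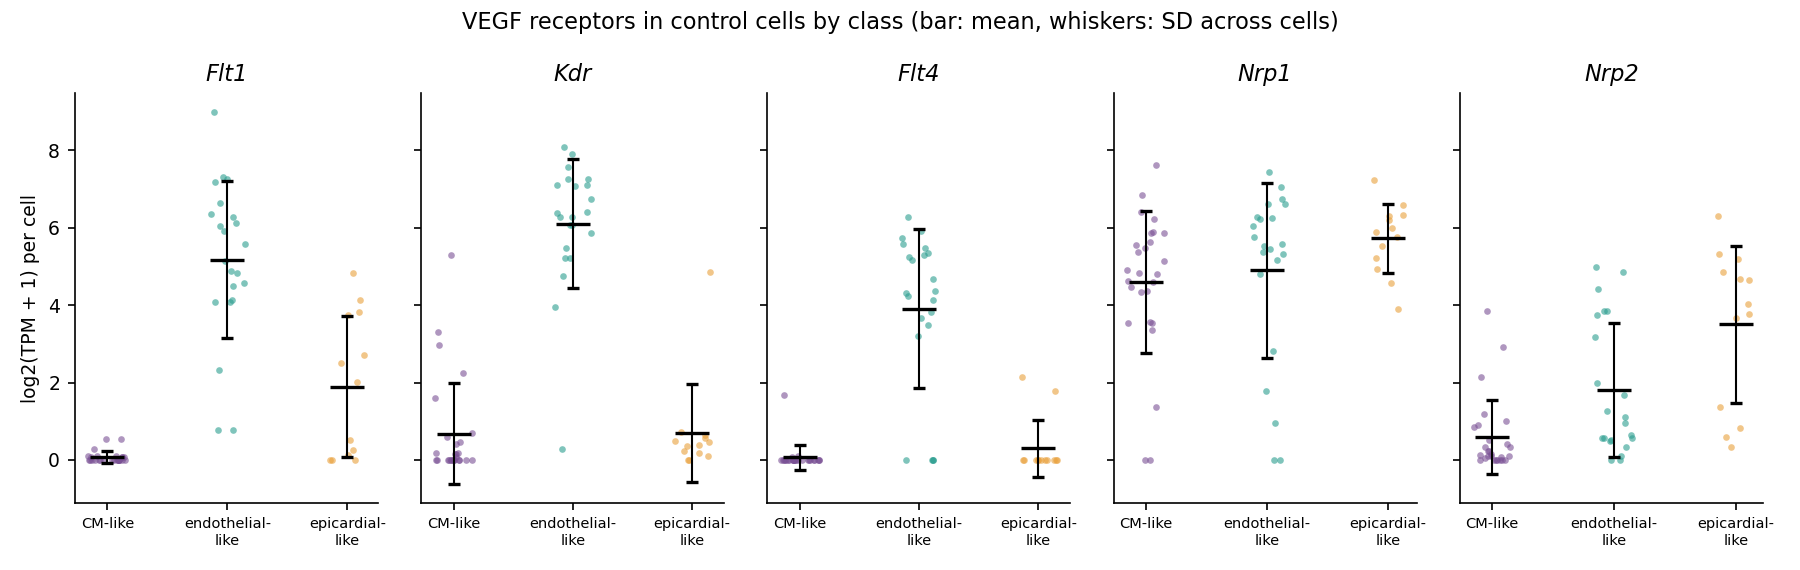
Each point is a control cell, plotted as log2(TPM + 1) for the 5 receptors in 27 CM-like, 22 endothelial-like and 13 epicardial-like cells, with the mean as a bar and the SD across cells as whiskers. Flt1, Kdr and Flt4 means are 5.17, 6.11 and 3.91 in endothelial-like cells and 0.07, 0.68 and 0.07 in CM-like cells, while Nrp1 is high in each class.

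Among the ligands, Vegfc was found in the endothelial-like cells themselves. It reached a TPM of 1 in 11 of 22 of them (95% interval 28.2% to 71.8%), against 3 of 27 CM-like control cells (2.35% to 29.2%). Its highest value was 74.9 TPM and its median 3.04, since the other 11 cells were at 0. Its means differed by 1.95 pooled, with 2.80 in batch 1 and 1.37 in batch 2, smaller than the SD of 2.65 across endothelial-like cells. Vegfc met the rule in 8 of 10 alternative settings. Vegfb differed from CM-like control cells by −1.99 pooled, −1.68 in batch 1 and −2.20 in batch 2, and reached a TPM of 1 in 9 of 22 cells. Vegfa differed by −0.95 pooled, −0.46 in batch 1 and −1.86 in batch 2, and did not meet the rule. The study describes Vegfa as normally low in CMs and enriched in endothelial and mesenchymal cells. Between the endothelial-like and CM-like control cells, that order was not seen, though their difference did not meet the rule. No class was named mesenchymal here. The epicardial-like class, which had 7 of 12 mesenchymal markers raised, had a higher mean log2 Vegfa (3.56) than CM-like control cells (2.49). Pgf was above 0 in 1 of 22 endothelial-like cells, at 0.713 TPM.

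Compared per length, Vegfa and the 3 kinases had opposite orders in these 2 classes, while the summed ligand TPM was close, at 34.9 in CM-like and 37.1 in endothelial-like control cells. Mean Vegfa TPM was 10.48 in CM-like and 4.80 in endothelial-like control cells, and mean Kdr TPM was 2.30 and 99.5. Vegfc had the same order as the kinases, with means of 1.46 and 19.03, and made up 51.3% of the summed ligand TPM in endothelial-like cells. Mean Flt4 TPM, its receptor, was 0.0874 in CM-like and 25.9 in endothelial-like cells.

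**Figure D4:**
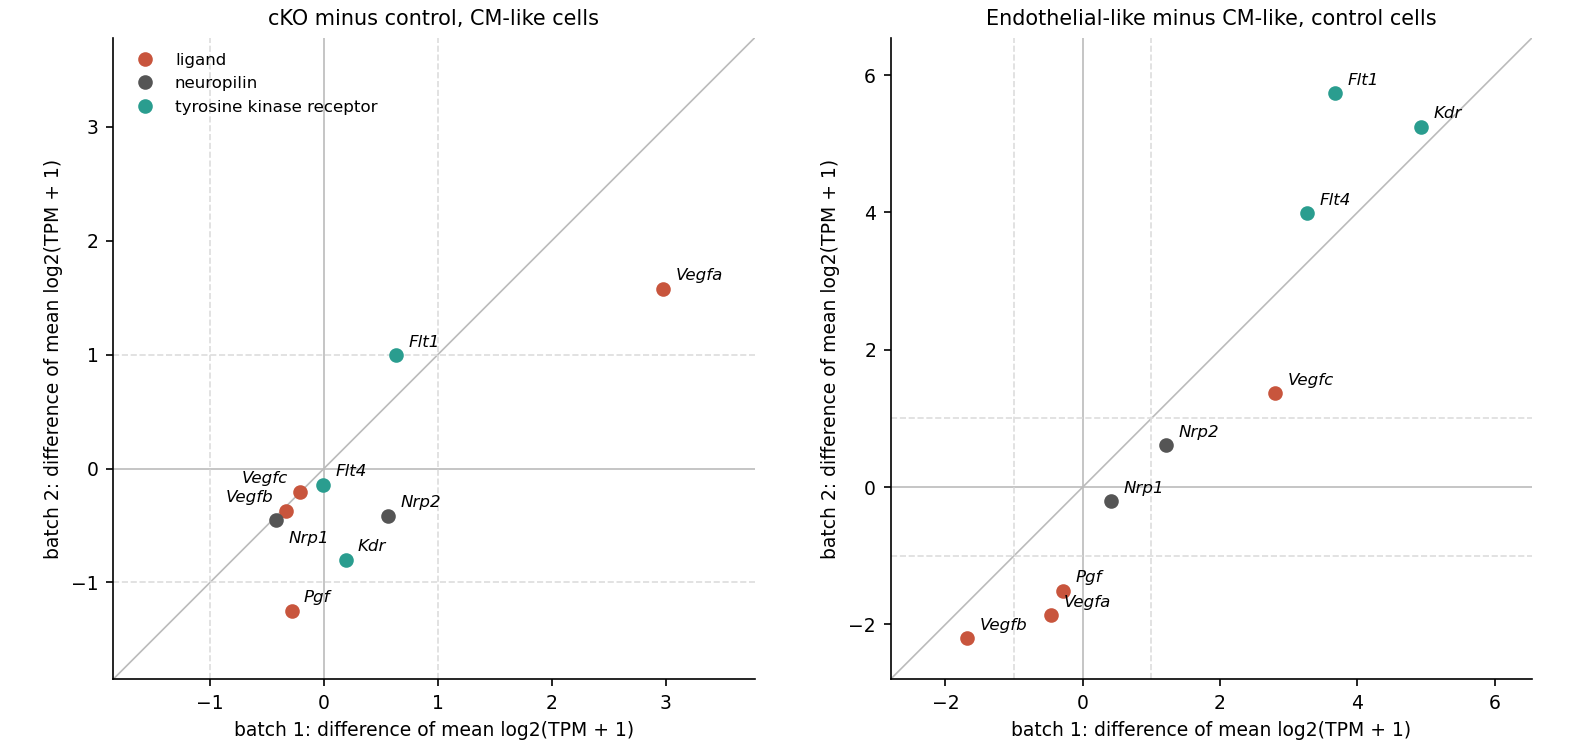
Each point is a VEGF gene, with the difference of mean log2(TPM + 1) in batch 1 on the x axis and in batch 2 on the y axis, for cKO minus control CM-like cells (left) and for endothelial-like minus CM-like control cells (right), and dashed lines mark 1 log2 unit. Vegfa is the gene past 1 unit in both batches on the left, at 2.98 and 1.58, and on the right Flt1, Kdr, Flt4 and Vegfc are past it upwards and Vegfb, at −1.68 and −2.20, downwards.

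The kinases shared most endothelial-like cells, since Flt1 and Kdr were above 0 in all 22 and Flt4 in 18. Of the 22 endothelial-like cells, 18 had TPM above 0 for Flt1, Kdr and Flt4 together, 81.8% (95% interval 59.7 to 94.8), and 17 still had a TPM of 1 or more for all 3. Kdr was the highest of the 3 kinases in 15 cells, Flt1 in 4 and Flt4 in 2, and 1 cell reached a TPM of 1 for none. All 5 receptors reached a TPM of 1 in 8 of 22 cells. In contrast, 22 of 27 CM-like control and 43 of 67 cKO CM-like cells had none of the 3 kinases at a TPM of 1, and 0 of 67 cKO cells had all 3, a count that allows up to 4.48%. The levels of Kdr and Flt1 correlated with Pearson's r of 0.61 over the 22 endothelial-like cells, but with 0.87 over the 7 of batch 1 and 0.19 over the 15 of batch 2, so the batches did not show the same relation.

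Vegfa and its co-receptor Nrp1 shared CM-like cells about as often as their separate shares give. Both reached a TPM of 1 in 59.3% of the control cells (16 of 27, 95% interval 38.8 to 77.6) against 80.6% of those from cKO hearts (54 of 67, 69.1 to 89.2). The product of the single shares was 61.7% in control and 80.1% in cKO. Their log2 levels had an r of −0.25 over the 67 cKO cells, −0.22 in batch 1 and −0.27 in batch 2, a weak value, given as a description. Vegfa and Flt1 both reached a TPM of 1 in 16 of 67 cKO cells and 0 of 27 control cells, so that 16 of the 18 cells with Flt1 had Vegfa, where 62 of all 67 did.

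The epicardial-like cells, named for markers of the outer lining of the heart, were control only and held the highest mean Vegfa of the control classes with more than 5 cells. Vegfa averaged 3.56 ± 1.68 on the log2(TPM + 1) scale (n = 13 cells), with TPM from 0 to 43.3 and a median of 13.6. In order of mean log2 value, Vegfa stood at 5.02 in cKO CM-like, 3.56 in epicardial-like, 2.49 in CM-like control and 1.54 in endothelial-like cells, and no neighbours in this order differed by more than the SD of either. Nrp1 was found in all 13 epicardial-like cells, with TPM from 13.8 to 149, and Nrp2 reached a TPM of 1 in 10 of 13. Pgf reached a TPM of 1 in 4 of 13 and as much as 116 TPM, and Flt1 in 7 of 13 and as much as 27.6 TPM, although Kdr did so in 1 of 13.

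The smaller groups are given as values. The 5 erythroid-like cells had Nrp1 TPM of 0.168, 27.016, 39.3, 63.9 and 76.4, Kdr TPM of 0, 0.163, 0.574, 4.62 and 32.96, and Vegfa TPM of 0, 0.444, 1.38, 10.9 and 23.6, while Flt1, Flt4, Vegfc and Pgf were at 0 in each. In the 9 unnamed cells the highest Vegfa value was 3.75 TPM, and Flt4 was at 0 in each.

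The other genes of the pathway were taken from 7 lists of 97 names in all (Figf and Vegfd name the same gene), of which 82 passed the filter in CM-like cells. By the same rule 9 of the 82 were higher in cKO, where 2.65% of all genes were, and 1 was lower, where 2.69% were. Some genes of these lists, among them Ctgf and Hspg2, were named by the study from these cells, so their direction is no independent evidence. The 29 tested genes of receptor signalling, the relay from the kinases to growth and survival, had 2 higher and 0 lower, with a median difference of 0.18, and 0.56 in batch 1 and −0.20 in batch 2. Mapkapk2, a kinase of the p38 relay, was among the genes called, higher by 1.17. Map2k1, which activates the ERK kinases, differed by 1.98 pooled but 0.49 in batch 2, so that it did not meet the rule. Akt1, a survival kinase, had a difference of −1.35 and Bad, a cell death protein that Akt inhibits, of −1.30, and neither met it.

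Of 17 receptor partners, 2 were higher and 0 lower, with a median of 0.23. Itgb3, an integrin chain known to form complexes with Kdr, was higher by 2.04, from 0.12 in control to 2.16 in cKO on the log2(TPM + 1) scale. It reached a TPM of 1 in 34 of 67 cKO cells and 0 of 27 control cells, which allows up to 11.1%. Its partner chain Itgav was the other gene called, at 1.74. Sdc4, a heparan sulfate proteoglycan, differed by 1.93 pooled and by 0.34 in batch 2, and Efnb2, a membrane ligand that guides Kdr uptake, by −1.19.

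Matrix proteins and proteases hold or cut the ligands, and class 3 semaphorins compete for the neuropilins. Of 8 genes for ligand storage and processing that passed, Hspg2 (perlecan, a heparan sulfate proteoglycan that binds Vegfa) was higher by 2.25 and Ctgf, which binds Vegfa, by 3.30, and none was lower, with a median of 0.32. Of 4 semaphorins that passed, none was higher or lower, with a median of −0.33, and Sema3a, a ligand of Nrp1, had a difference of −1.18. Figf, the VEGF-D gene, had a difference of −0.08.

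Genes that respond to VEGF signals in endothelial cells were mostly without a common direction in CM-like cells. Of 9 that passed, Rcan1, an inhibitor of calcineurin, was higher by 2.93 and none was lower, with a median of 0.10, and 0.48 in batch 1 and −0.46 in batch 2. Egr1 had a difference of −2.75 in batch 1 and 0.31 in batch 2.

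Among 14 regulators of Vegfa, all of which passed, 2 were higher and 1 lower. Over the list the median came to 0.12, with 0.92 within batch 1 and −0.59 within batch 2. The 2 that were higher were the oxygen sensors Egln1 (PHD2), by 2.34, and Egln3 (PHD3), by 2.05, prolyl hydroxylases that mark HIF subunits for decay and are themselves HIF targets. Egln1 averaged 1.77 in control and 4.12 in cKO, and Egln3 0.23 and 2.28, with Egln3 at a TPM of 1 in 1 of 27 control and 31 of 67 cKO cells. Zfp36, a protein that binds AU-rich elements and speeds the decay of messages such as Vegfa, was lower, with a difference of −1.96 pooled, −2.10 in batch 1 and −2.43 in batch 2. It averaged 3.39 in control and 1.43 in cKO.

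Across cKO CM-like cells, the 5 genes whose level was most like that of Vegfa were sought among 5187 genes with a TPM of 1 in at least 50% of the cells of each batch. By the smaller of the r of batch 1 (33 cells) and of batch 2 (34 cells), these were Egln1 (0.65 and 0.63), P4ha2, a collagen prolyl hydroxylase (0.59 and 0.68), Pam, which amidates peptides (0.67 and 0.59), Atp1b1, a sodium pump subunit (0.70 and 0.59), and Hspg2 (0.62 and 0.59). The r of Vegfa with the number of detected genes was 0.47 in batch 1 and 0.14 in batch 2, and its part in these values was not tested. Across control cells of all classes (35 and 39 cells), the genes most like Kdr were Cdh5 (0.88 and 0.87), Plvap (0.86 and 0.88), Cd93 (0.86 and 0.89), Tie1 (0.87 and 0.83) and Eng (0.86 and 0.82), all known endothelial genes, 3 of them markers that formed the classes.

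In endothelial-like against CM-like control cells, the pathway lists had 8 of 30 receptor signalling genes higher and 1 lower, 6 of 15 receptor partners higher and 1 lower, and 5 of 8 storage genes higher, where 10.2% of all genes were higher. Of the others, 1 of 4 semaphorins, 4 of 9 response genes and 4 of 14 regulators were higher and 1 response gene, Hey2, was lower, where 4.68% of all genes were. The filter again counted cells of both classes, so a gene could pass through the class in which it was higher. Nos3, the endothelial nitric oxide synthase, was higher by 3.82 and Plxnd1, the plexin that pairs with neuropilins, by 4.30. Hspb1, a small heat shock protein, was lower, with a difference of −6.70, and Zfp36 was higher by 2.98.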

How the data were processed

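The authors processed reads of single-cell Smart-seq2 libraries with Salmon against mm10 with reporter sequences added, and kept cells that mapped well. The version and annotation were not given in the sources used here. The deposited TPM table has 143 columns, matched by title to 170 labelled samples, and 27 samples were not analysed here. TPM sums per cell were 996133 to 999999, so depth is unknown. There were no molecular identifiers.

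Values were taken as log2(TPM + 1). The 5 Ward clusters of 55 z-scored markers were named after the list with most of its genes raised by 1 log2 unit or more against other cells and seen in most cells, as a share of the list, needing 3 such genes. These classes are rebuilt and may differ from the study's. No cell was removed here and no doublet caller was run. Members, lists, markers and rules were chosen with earlier results of these data known. Differences are of means over cells, for genes detected (TPM above 0) in over 10 cells compared, repeated within batches. Each genotype was 1 sample, so no test was run. Intervals are exact Clopper-Pearson 95%, and a count of 0 was taken to allow 3 cells. Both cover counting error only. Named genes were the 9 members, at most the 2 highest and 2 lowest of each pathway list, and 5 genes each by likeness to Vegfa and Kdr (for Kdr, TPM of at least 1 in 20% of cells of each batch). Itgav and Mapkapk2 were named after their values were seen. A gene of the receptor signalling list is not reported here by name. Scripts ran in Python 3.11.15 with scipy 1.17.1 and were tested on simulated data.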

Additional observations from a re-analysis of the deposited data

How the results depend on the processing

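No value changed sign among those called. No paired analysis was possible because the labels number cells and name no shared embryo or litter, and no test was run. In cKO against control CM-like cells, Vegfa differed by 1.52 with a pseudocount of 10. With the log2 ratio of mean TPM, 2 members were higher, Flt1 being the added gene, and the median of all genes moved to 0.20. The 399 genes called higher became 759 with a pseudocount of 0.1, 140 with 10, 1154 with the ratio of mean TPM, 924 with 4 clusters, 1910 in batch 1 alone and 772 in batch 2 alone. The 406 called lower became 827 with a pseudocount of 0.1, 95 with 10, 776 with TPM divided by a per-cell factor, 146 with 4 clusters, 738 with marker-free clusters and 2949 in batch 2 alone. In endothelial-like against CM-like control cells, the 1343 called higher became 2159 and 531 with pseudocounts of 0.1 and 10, 2447 with 4 clusters, 767 with marker-free clusters and 3753 in batch 1 alone, and the 614 called lower became 962, 272, 1105 with a per-cell factor, 353 with 4 clusters and 1848 in batch 2 alone. The members called lower became 0 with a pseudocount of 10 and with the ratio of mean TPM, and 2 in batch 2 alone. Among pathway genes, 20 were higher and 4 lower in batch 1 alone, and 17 were lower in batch 2 alone. Vegfa and Nrp1 shared 80.6% of cKO CM-like cells at a TPM of 1 and 94.0% above 0. Calls in single batches need no second batch to share the direction, and the cause of the other moves was not tested. The settings with other clusters did not hold the same cells. With 4 clusters the CM-like class had 69 cKO and 34 control cells, against 67 and 27 in the main setting. With marker-free clusters it had 61 and 24, and the endothelial-like class had 37 control cells against 22. Flt1, Kdr and Flt4 stayed higher in endothelial-like cells in each of 10 settings. Vegfc lost its call with a pseudocount of 10 (0.88) and with marker-free clusters (1.17), and Nrp2 gained one with a pseudocount of 0.1 (2.27), with marker-free clusters (1.82) and in batch 1 alone (1.22). Pgf, which failed the filter, was past the rule in cKO with the ratio of mean TPM (−1.01) and in batch 2 alone (−1.25). Leaving out cells with Pecam1, Cdh5, Tek, Tie1 or Emcn at a TPM of 1 left no cells, so an alternative without Pecam1 was added after seeing the data.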
